A study of Mus musculus with 7 samples.

Results

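Krüppel-like factors (Klf) were compared between mature and immature bone marrow-derived dendritic cells (BMDCs). The set was the 9 genes Klf2, Klf3, Klf4, Klf6, Klf7, Klf9, Klf10, Klf11 and Klf13, taken by gene symbol from 28666 genes in the deposited table. They are 9 of the 15 Klf genes that it lists. All 9 passed the filter on low counts that left 17461 genes for testing. BMDCs had been grown from the bone marrow of female C57BL/6 mice aged 6 to 8 weeks in GM-CSF (20 ng/mL) and IL-4 (10 ng/mL) for 7 days. They were then kept in a Transwell, which lets soluble factors pass but keeps cells apart, with MC38 mouse colon carcinoma cells. The study describes 24 h of DON, a glutamine antagonist, at 5 µM, and one legend names DMSO or DON, while the labels give only the stage, so the treatment of each library was not known. Cells were then separated by flow sorting into immature (3 libraries) and mature (4 libraries), by markers that the sources used here do not name. The labels do not say whether libraries came from separate cultures or animals, so p-values measure the spread between these libraries, which may be technical. Mature replicates 2 to 4 carried heart muscle transcripts, and mature replicate 3 stood apart from the other mature libraries in several of the genes below.

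Klf proteins bind GC-rich and CACCC elements through C-terminal zinc fingers. Some members mainly activate transcription, and others recruit the corepressors CtBP or Sin3 and mainly repress it. In blood cells, Klf2 is known for quiescence and trafficking and Klf4 for the differentiation of monocytes and some dendritic cells.

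Of the 9 Klf genes, 6 fell in mature cells (Klf2, Klf3, Klf4, Klf9, Klf10 and Klf13) and 0 rose, by edgeR and by DESeq2. At an unadjusted p under 0.05, 8 were lower and 0 higher, against 25.8% and 27.1% of all tested genes. The count was 5 without immature replicate 1, where Klf2 was lost, 5 with mature replicate 3 left out as well, where Klf9 was lost, and 6 without mature replicate 3 alone. Over all libraries the mean CPM of Klf4 was 5.53-fold and that of Klf2 3.97-fold below the immature mean. Without mature replicate 3 the order turned, at 6.08-fold for Klf4 and 6.95-fold for Klf2, and the log2 fold changes of Klf2 and Klf4 were also in that order with immature replicate 1 left out as well (-2.42 and -2.38) and with mature replicate 1 alone (-2.78 and -2.47). Klf6, the most abundant member per length, had nearly equal means. Klf7 and Klf11 were lower in CPM in every mature library, with group differences under the criterion on size. In FPKM their groups overlapped: mature replicate 2 was above immature replicate 3 for Klf7 (4.60 and 4.48) and Klf11 (1.91 and 1.74). A gene was called changed where edgeR's quasi-likelihood test gave a log2 fold change of 1 or more in size and a Benjamini-Hochberg adjusted p under 0.05. The median log2 fold change of the 9 genes was -1.17, beside 0.06 over all 17461 genes. By the same criteria 23.1% of all tested genes changed, with 9.95% lower and 13.2% higher in mature cells, so 6 of 9 is above the background share. The members were chosen with earlier results of these data known, so this excess is a description and not a test. In 8 of 9 Klf genes every mature library lay below every immature library in CPM, against 26.7% of all tested genes. Klf7 and Klf11 lacked this separation in FPKM. Among 494 other tested genes that the table assigns to the zf-C2H2 transcription factor family, 3.24% were lower and 15.4% higher, with a median of 0.44. In bulk RNA, a smaller number of cells that express a gene cannot be told apart from less of its RNA per cell.

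Promoter windows of 4 members are shown because these members span the response, with the deepest falls (Klf2 and Klf4), the fall with the smallest error (Klf13) and the nearly equal means (Klf6). Each window of 220 bases runs from 250 to 31 bases before the RefSeq start on GRCm38.p6, is written 5′ to 3′ on the strand of the gene, and has GC boxes (GGGCGG, or CCGCCC on the other strand) in capitals. RefSeq windows were found for 8 of the 9 members.
Klf2 (chr8:72318812-72319031, plus strand): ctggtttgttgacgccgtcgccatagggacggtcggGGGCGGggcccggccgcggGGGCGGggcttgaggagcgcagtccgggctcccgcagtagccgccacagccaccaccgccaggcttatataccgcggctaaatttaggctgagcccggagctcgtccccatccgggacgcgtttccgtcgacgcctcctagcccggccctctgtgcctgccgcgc
Klf4 (chr4:55532506-55532725, minus strand): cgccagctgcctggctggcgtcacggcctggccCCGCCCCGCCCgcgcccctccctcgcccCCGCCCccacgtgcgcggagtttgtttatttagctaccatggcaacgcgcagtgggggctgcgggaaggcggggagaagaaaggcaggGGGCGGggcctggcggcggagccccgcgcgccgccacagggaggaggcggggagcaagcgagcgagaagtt
Klf13 (chr7:63938946-63939165, minus strand): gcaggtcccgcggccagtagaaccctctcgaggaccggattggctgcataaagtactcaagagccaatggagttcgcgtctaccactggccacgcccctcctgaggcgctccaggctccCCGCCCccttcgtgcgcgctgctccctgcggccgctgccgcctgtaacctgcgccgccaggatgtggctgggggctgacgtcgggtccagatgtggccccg
Klf6 (chr13:5861239-5861458, plus strand): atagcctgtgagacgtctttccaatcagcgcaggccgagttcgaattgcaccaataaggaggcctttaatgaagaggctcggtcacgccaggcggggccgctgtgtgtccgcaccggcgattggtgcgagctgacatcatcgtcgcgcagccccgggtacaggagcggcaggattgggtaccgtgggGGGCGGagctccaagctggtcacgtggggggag
These windows are rich in G and C, at 71.4% for Klf2, 74.5% for Klf4, 68.6% for Klf13 and 63.2% for Klf6, beside a median of 51.8% over 32851 promoter windows. A GC box was present in 7 of the 8 windows and in 28.5% of all windows. It occurred 4 times in Klf4, 2 times in Klf2 and 1 time in both Klf13 and Klf6, so its presence did not separate members that fell from Klf6. The CACCC box (CACCC, or GGGTG on the other strand) matched in Klf3, Klf7 and Klf9 and in 47.8% of all windows, and 1 of the matches in Klf3 overlapped a GC box. On either strand, the cyclic AMP response element TGACGTCA, the STAT site TTCNNNGAA, the TATA box TATAAA and the MEF2-type TATTTATA matched in 0 of the 8 windows. In all windows these matched at 1.14%, 6.27%, 9.95% and 1.25%. A match describes the letters of a window only. Because the windows end 31 bases before the start, a TATA box closer to it was not searched for, so 0 matches do not show that one is absent.

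Levels between members were compared as FPKM, which scales fragments by transcript length and library total and so corrects for gene length. In immature cells Klf6 was highest at 83.1 ± 19.7 FPKM (SD, n = 3), followed by Klf4 at 64.2 ± 15.4 and Klf2 at 41.9 ± 17.5. The ranges of these neighbours overlapped, although the order held within each of the 3 libraries. From Klf2 downward no neighbouring ranges overlapped: Klf10 was at 19.0 ± 1.06, Klf13 at 15.7 ± 0.19, Klf9 at 13.2 ± 0.96, Klf3 at 7.36 ± 0.47, Klf7 at 4.83 ± 0.41 and Klf11 at 2.03 ± 0.26. In mature cells Klf6 stood alone at 91.5 ± 5.71 FPKM (SD, n = 4). Klf4 followed at 12.4 ± 1.73, Klf2 at 11.0 ± 8.80, Klf10 at 9.09 ± 1.40, Klf9 at 6.75 ± 0.97 and Klf13 at 5.51 ± 0.49, and the ranges of neighbours among these 5 overlapped. Klf2 was above Klf10 in only 1 of the 4 mature libraries, replicate 3, and its mean without that library was 6.63 ± 1.27 (SD, n = 3), below that of Klf10. Klf7 (3.73 ± 1.14) and Klf3 (2.81 ± 0.55) also overlapped, and Klf11 was lowest at 1.76 ± 0.14. Klf13 passed from above Klf9 to below it, and Klf3 from above Klf7 to below it, in every library of each group.

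**Figure D1:**
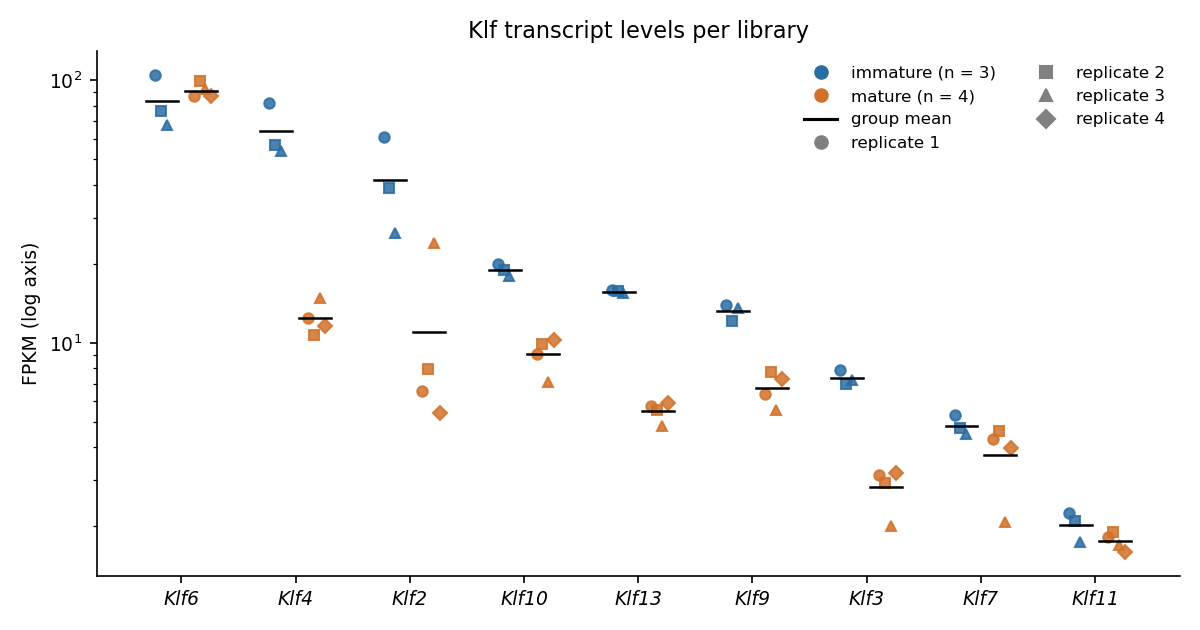
FPKM of the 9 Klf genes on a log axis, 1 point per library, immature in blue (n = 3) and mature in orange (n = 4), with black bars for group means and the marker shape for the replicate number. In mature cells Klf6 lies between 87.0 and 99.0 and Klf4 between 10.8 and 14.8, and the Klf2 point of mature replicate 3 (24.1) stands above the other mature points.

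The summed level of the 9 genes was 313, 233 and 208 FPKM in immature replicates 1, 2 and 3, and 136.5, 150, 155 and 136 FPKM in mature replicates 1 to 4. The groups did not overlap, and the means were 251 ± 54.9 (SD, n = 3) and 145 ± 9.53 (SD, n = 4). A two-sided exact permutation test gave p = 0.0571, which is the smallest value that 3 against 4 libraries allow. Without Klf6 the sum was 168 ± 35.2 in immature and 53.1 ± 6.13 in mature cells. The share of the sum that came from Klf6 was 33.0% ± 0.58 in immature and 63.3% ± 2.51 in mature cells (SD, n = 3 and n = 4). The share of Klf4 was 25.5% ± 0.93 and 8.59% ± 1.05. That of Klf2 was 16.2% ± 3.43 and 7.40% ± 5.47, and it reached 15.6% in mature replicate 3.

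**Figure D2:**
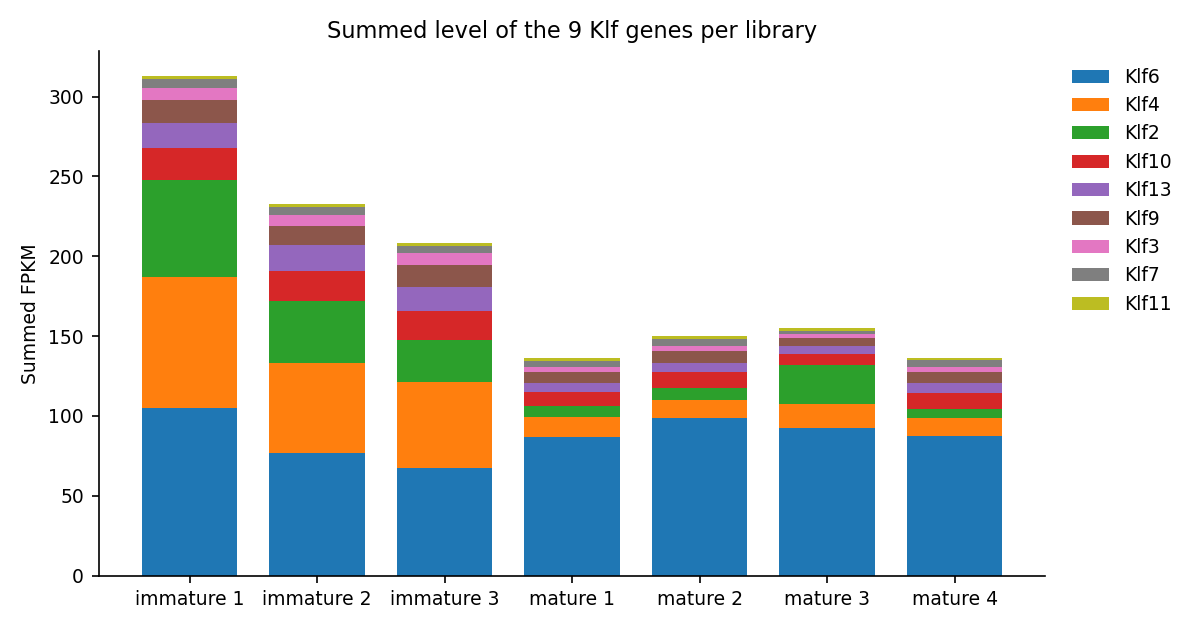
Summed FPKM of the 9 Klf genes in each library, stacked by gene from Klf6 at the base to Klf11 at the top. Immature bars reach 208 to 313 and mature bars 136 to 155, and the Klf6 block is 67.5 to 105 high in immature and 87.0 to 99.0 in mature cells, while the Klf4 block shrinks from 53.9 or more to 14.8 or less.

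Among the members known mainly as activators, Klf4 (chr4:55527143-55532466, minus strand, GRCm38) directs monocyte differentiation and is one of the factors used to make pluripotent cells. Its level as CPM, counts relative to the library total after scaling by TMM factors, was 282, 194 and 192 in the immature libraries and 39.5, 33.3, 51.0 and 37.1 in the mature libraries. The lowest immature library was well above the highest mature one, mature replicate 3. The log2 fold change of mature against immature was -2.47 (SE 0.18, adjusted p = 1.01e-05, edgeR). The 3 genes whose profile over the 7 libraries was nearest to Klf4, out of 6665 with a mean FPKM of at least 5, were Plk3, Nqo2 and Rab3il1. Each profile was log2 CPM relative to the gene's own immature mean, so absolute levels were not compared. On this scale the root mean square differences from Klf4 were 0.14, 0.18 and 0.18. The log2 fold changes of these 3 genes were -2.42, -2.50 and -2.46, near that of Klf4 because the genes were chosen for this likeness.

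Klf2 (chr8:72319033-72321656, plus strand) keeps lymphocytes quiescent, directs their trafficking and restrains inflammatory genes in myeloid and endothelial cells. Its CPM was 127, 80.0 and 56.5 in the immature libraries and 12.5, 14.9, 50.4 and 10.5 in the mature libraries. Mature replicate 3 was 3.99 times the mean of the other mature libraries and lay just below immature replicate 3. The log2 fold change was -1.99 (SE 0.55, 95% interval -3.25 to -0.74, adjusted p = 0.0169, edgeR). Without immature replicate 1 it was -1.64 and the adjusted p was 0.0668, so the call was lost. Without mature replicate 3 it was -2.77, with an adjusted p of 2.03e-05. With both left out it was -2.42, with an adjusted p of 3.87e-05.

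Klf6 (chr13:5861482-5870394, plus strand) is a broadly expressed activator that is induced in inflamed macrophages. Its CPM was 521, 376 and 347 in the immature libraries and 396, 441, 461 and 401 in the mature libraries. Immature replicate 1 was the highest and the groups overlapped. The log2 fold change was 0.04 (SE 0.14, 95% interval -0.29 to 0.36, adjusted p = 0.861, edgeR), an interval that lies inside the criterion on size. Its sign turned in the fits without immature replicate 2 (-0.03) or without immature replicate 3 (-0.08).

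Klf7 (chr1:64029447-64121491, minus strand) is best known from neurons. Its CPM was 48.5, 43.0 and 42.5 in the immature libraries and 36.2, 38.0, 19.1 and 33.7 in the mature libraries. All mature libraries were lower, and mature replicate 3 was far below the other mature libraries. The log2 fold change was -0.49 (SE 0.21, 95% interval -0.98 to -0.01, adjusted p = 0.0915, edgeR). Without mature replicate 3 it was -0.29 with an adjusted p of 0.00979, which is still under the criterion on size.

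Klf3 (chr5:64803388-64832901, plus strand) recruits CtBP and acts mainly as a repressor. Its CPM was 100.1, 87.4 and 95.3 in the immature libraries and 36.6, 33.3, 25.7 and 37.5 in the mature libraries. The groups were far apart, and Klf3 fell by 1.50 on the log2 scale (SE 0.13, adjusted p = 2.9e-05, edgeR). A gene on the opposite strand, Gm20033, overlaps Klf3 and had 7 to 17 counts per library, against 1359 to 6151 for Klf3.

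The members that recruit Sin3 are Klf9, Klf10, Klf11 and Klf13, and 3 of these 4 fell. Klf13 (chr7:63886351-63938915, minus strand) was first described as a factor that drives Ccl5 in activated T cells. Its CPM was 135, 132 and 136 in the immature libraries and 45.1, 42.6, 41.0 and 46.6 in the mature libraries. Libraries of a group were closer together than for any other member in CPM relative to its mean, and the log2 fold change was -1.62 (SE 0.075, adjusted p = 8.28e-07, edgeR). Klf10 (chr15:38291463-38300706, minus strand), a gene induced early by TGF-β, had a CPM of 94.6, 88.2 and 87.6 in the immature and 39.5, 42.0, 33.6 and 44.9 in the mature libraries. It fell by 1.17 on the log2 scale (SE 0.11, adjusted p = 3.19e-05, edgeR).

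Klf9 (chr19:23141226-23168134, plus strand) is a known target of glucocorticoid and thyroid hormone receptors. Its CPM was 75.9, 65.4 and 76.7 in the immature libraries and 31.9, 37.9, 30.4 and 36.9 in the mature libraries. The groups did not overlap and Klf9 fell by 1.08 on the log2 scale (SE 0.11, adjusted p = 5.83e-05, edgeR), close to the criterion on size. With upper-quartile factors, which move the median of all genes by 0.11, it was -0.97, and with both immature replicate 1 and mature replicate 3 left out it was -0.98, so the call on size was lost in both. Klf11 (chr12:24651274-24662789, plus strand), a relative of Klf10, had a CPM of 11.1, 10.1 and 8.82 in the immature and 8.18, 8.45, 8.38 and 7.29 in the mature libraries. Its log2 fold change was -0.31 (SE 0.13, 95% interval -0.60 to -0.01, adjusted p = 0.0831, edgeR).

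**Figure D3:**
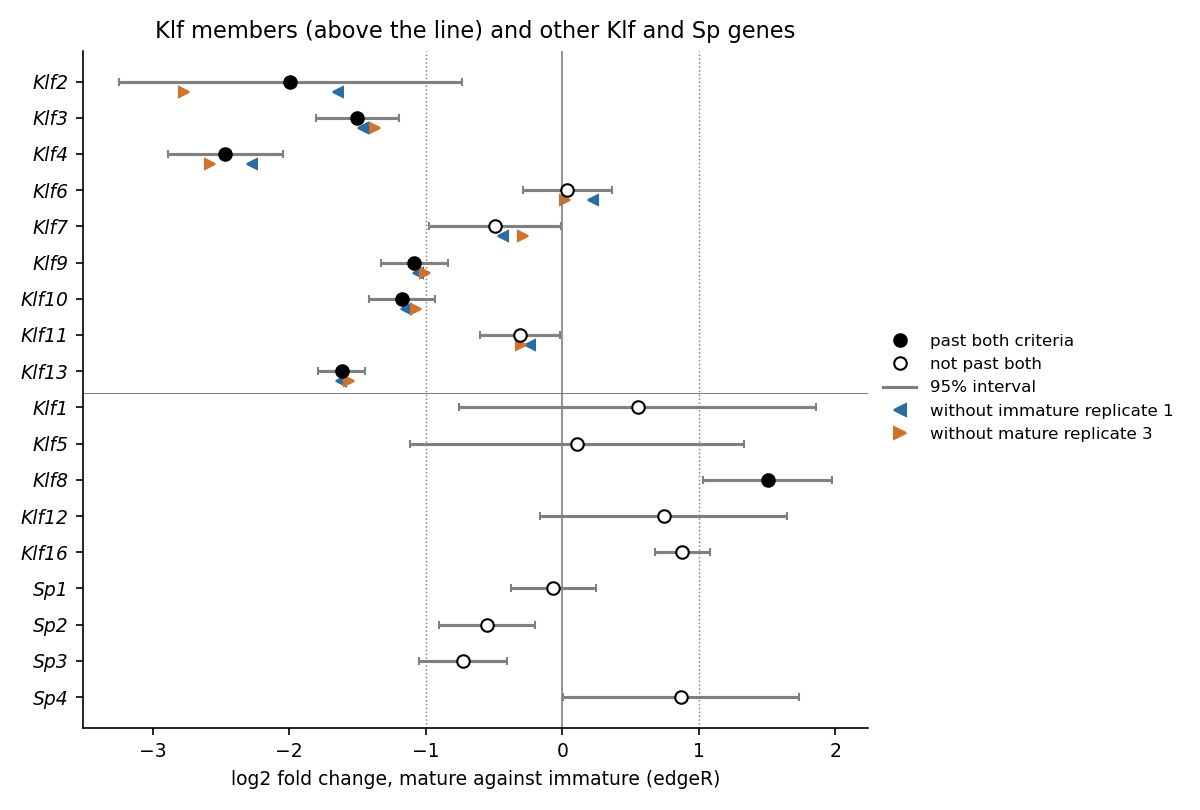
Log2 fold change of mature against immature cells (edgeR) for the 9 Klf genes above the line and 9 other Klf and Sp genes below it, with 95% intervals; filled points passed both criteria, dotted lines mark the criterion on size, and triangles give the fits without immature replicate 1 (blue) or mature replicate 3 (orange). The triangles of Klf2 lie at -1.64 and -2.77, while those of Klf13 lie at -1.62 and -1.56, and Klf8 is the filled point to the right of 0.

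Of the rest of the Klf and Sp family, 14 of 18 listed genes were in the table, 10 were tested, 2 rose and 0 fell by edgeR and by DESeq2, with a median log2 fold change of 0.65. At an unadjusted p under 0.05, 4 of the 10 were higher and 2 lower, against 27.1% and 25.8% of all tested genes. Klf8, a CtBP-recruiting relative of Klf3, had a CPM of 3.07, 3.20 and 3.64 in the immature and 10.7, 10.1, 6.41 and 10.3 in the mature libraries. It rose by 1.50 on the log2 scale (SE 0.21, adjusted p = 0.000411, edgeR), the opposite direction to Klf3. Klf15, a regulator of metabolism in heart, liver and muscle, had 0 counts in all immature libraries and in mature replicate 1, and 95, 52 and 29 counts in mature replicates 2, 3 and 4. Its adjusted p was 0.0251 (edgeR), and 0.0581 to 0.0617 with 1 immature library left out, and it was not tested without mature replicate 2, 3 or 4. A list of 10 heart muscle markers, among them Myh6 and Myl2, followed the same libraries: its summed CPM was 5.06 to 5.61 in immature cells, 27.1 in mature replicate 1, and 721, 851 and 743 in mature replicates 2, 3 and 4. All 10 were higher in mature cells (1 of the 8 tested with mature replicate 1 alone), and their part in the Klf15 counts was not tested. Klf16, a Sin3-recruiting member, had a log2 fold change of 0.88 (adjusted p = 6.38e-05), Sp3 -0.73 (adjusted p = 0.00297) and Sp2 -0.55 (adjusted p = 0.0174), all under the criterion on size. Sp1, the widely expressed GC box factor, was at -0.06 (95% interval -0.37 to 0.24) and Sp4 at 0.87 (adjusted p = 0.0921), while Sp4 passed both criteria without immature replicate 1 (1.24, adjusted p = 0.0474), mature replicate 2 (1.08, adjusted p = 0.0386) or mature replicate 3 (1.03, adjusted p = 0.0364), with both immature replicate 1 and mature replicate 3 left out (1.39, adjusted p = 0.0187), and with mature replicate 1 alone (1.43, adjusted p = 0.00868). Klf1, Klf5 and Klf12 were at or below 1.51 CPM in every library, Sp5, Sp7 and Sp9 at or below 0.151 CPM, and Sp6 had 0 counts in all.

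Of 13 corepressor, coactivator and ubiquitin ligase genes, 0 rose and 0 fell by both criteria in edgeR or DESeq2, with log2 fold changes from -0.73 (Fbxw7, which marks Klf2 and Klf5 proteins for degradation) to 0.37 (Crebbp). By adjusted p alone, 3 were lower (Fbxw7, Ctbp2 and Kat2b) and 2 higher (Sin3b and Hdac1). At an unadjusted p under 0.05 the counts were 4 and 3 of 13, near the 25.8% and 27.1% of all tested genes. Of 16 genes for signals known to act on Klf genes, 4 fell and 1 rose. Those that fell were Mef2a (-1.06), Mef2c (-1.33), the TGF-β receptor gene Tgfbr2 (-1.71) and the TGF-β signal transducer Smad3 (-1.44). Mef2 factors act on Klf2 and Klf4 below the kinase gene Mapk7, which had a log2 fold change of -0.43. Mef2a was at -0.92 without mature replicate 3, so its call on size was lost. Foxo1, which activates Klf2 in lymphocytes, rose by 1.31 on the log2 scale, against the direction of Klf2.

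Of 12 genes known as targets of Klf proteins in other cells, 6 fell and 2 rose, with a median log2 fold change of -0.78. Among the targets linked to Klf2, the thrombomodulin gene Thbd (-1.60) fell, while the lymphocyte egress receptor gene S1pr1 was at -0.41 (adjusted p = 0.222). Arg1 (-3.34), Mrc1 (-3.43) and Cd14 (-1.74), linked to Klf4 and genes of alternatively activated macrophages or monocytes, fell. Lgals3, a galectin gene, also fell (-1.15). Not all listed targets were lower: Cdkn1a was at 0.19 (adjusted p = 0.126, edgeR) and Eng at 0.61 (adjusted p = 0.000871, edgeR), both under the criterion on size. Ccl5, the chemokine gene linked to Klf13, was 73.3, 68.8 and 71.7 CPM in immature and 1219, 1154, 1815 and 1149 CPM in mature libraries, and rose by 4.23 on the log2 scale (adjusted p = 8.09e-07) where Klf13 fell. Smad7, an inhibitor of TGF-β signalling that Klf10 represses, rose by 1.63 where Klf10 fell. Of 6 glucocorticoid response genes, a list bearing on Klf9, Sgk1 fell by 3.00 and Zbtb16 rose by 2.51 (1.75 with mature replicate 1 alone). Fkbp5 was at -0.38 and Tsc22d3 at -0.34, while Per1 was at 0.48 (adjusted p = 0.0143, edgeR). By adjusted p alone, 2 of the 6 were lower and 2 higher. Zbtb16 was near the floor, with 4 to 10 counts in immature and 25 to 48 in mature libraries.

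Klf2 and Klf4 are early response genes as well, so they were set beside 16 immediate early genes, of which 9 fell and 1 (Ier5) rose. Without mature replicate 3 Ier5 was at 0.98, so its call on size was lost, while 9 still fell. Fos had a CPM of 404, 233 and 188 in the immature and 25.8, 28.6, 55.8 and 25.2 in the mature libraries, and fell by 3.02 on the log2 scale (adjusted p = 0.000156, edgeR). Fosb had 146, 71.3 and 35.4 in the immature and 11.0, 15.2, 30.2 and 8.38 in the mature libraries. Both, like Klf2 and Klf4, were highest in immature replicate 1 and, among mature libraries, in mature replicate 3. Of the 16 genes, 14 were highest in immature replicate 1 among immature libraries (34.7% of all tested genes were), and 13 in mature replicate 3 among mature ones (38.0%). Of the 9 Klf genes, 7 were highest in immature replicate 1, while 5 were lowest in mature replicate 3 (36.4% of all tested genes). The latter share was 60.7% in the other tested zf-C2H2 genes and 50% in the other tested Klf and Sp genes. In these, 41.7% and 60% were highest in immature replicate 1. In mature replicate 3, Klf2 stood at 3.99 times and Klf7 at 0.53 times the mean of the other mature libraries. Fos was 2.15 times and Dusp1, a stress-induced phosphatase gene, 2.90 times as high in immature replicate 1 as in immature replicate 3, beside 2.24 times for Klf2 and 0.99 times for Klf13. The part of this pattern in the Klf2 values was not tested.

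**Figure D4:**
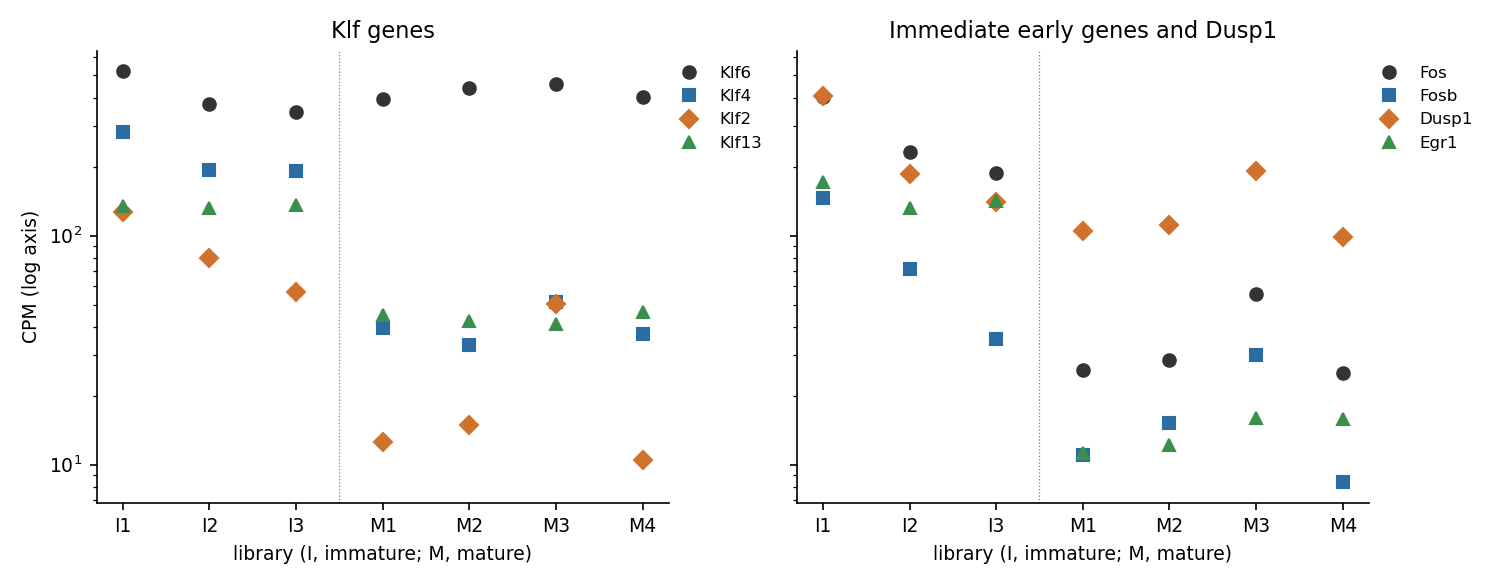
CPM on a log axis in immature (I1 to I3) and mature (M1 to M4) libraries, for 4 Klf genes on the left and for Fos, Fosb, Dusp1 and Egr1 on the right. Klf2 at M3 (50.4) stands above M1, M2 and M4 (10.5 to 14.9), as Fos and Fosb do, while Klf13 and Klf6 keep near their group's level there.

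The summed CPM of 10 dendritic cell markers was 12123 to 13059 in immature and 24001 to 32638 in mature cells. In the immature libraries Cd74 alone gave 6419 to 6846 of this sum. Flt3 was at 0.31 to 0.65 CPM and Zbtb46 at 24.3 to 27.0 CPM there, so the sum does not stand for every marker. Of the 10, 5 rose, among them Ccr7, Fscn1 and Ccl22, whose mean CPM was 917 in immature and 8879 in mature cells. By adjusted p alone, 7 were higher and 1, Itgax, was lower (-0.41, adjusted p = 0.0124, edgeR). Macrophage and monocyte markers, among them Csf1r and the complement genes C1qa, C1qb and C1qc, fell in 10 of 11 cases, from 2949 to 3116 CPM in immature to 517 to 584 CPM in mature cells. Klf4, a monocyte gene itself, moved with this list, whose part in the Klf falls was not tested. Beside the heart muscle markers described above, 6 endothelial markers had a summed CPM of 35.9 to 37.0 in immature and 15.5 to 33.7 in mature cells. Pecam1 was at -0.62 (adjusted p = 0.00908, edgeR) and Kdr at -0.56 (adjusted p = 0.407, edgeR). The other 4 of the 6 were higher in mature cells by both criteria, at low levels that reached 3.40 CPM at most (Cdh5, mature replicate 3). That count was 2 without immature replicate 1, immature replicate 2 or mature replicate 3, 1 without mature replicate 2 or 4, and 0 with mature replicate 1 alone, where 1 was lower. With mature replicate 1 alone against the immature libraries, the same 6 Klf genes passed both criteria, with Klf2 at -2.78 and Klf9 at -1.16, its spread then taken from the immature libraries. Kidney markers summed to 99.5 CPM in mature replicate 2 and to 37.6 or less elsewhere. Summed levels of 8 neutrophil, 6 basophil and mast cell, 5 erythroid, and 5 T and B cell markers stayed at or below 5.13 CPM in every library, while 4 erythroid genes were higher and the neutrophil gene S100a8 was lower in mature cells. The erythroid count was 2 without immature replicate 1, immature replicate 3 or mature replicate 2, and 1 without mature replicate 3 or 4 and with mature replicate 1 alone. Epithelial and tumour cell markers summed to 59.2 to 77.3 CPM, and 1 of 5 (Epcam) rose.

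Library totals were 54846746 to 67973086 counts, and single members had from 443 counts (Klf11, mature replicate 3) to 30596 (Klf6, immature replicate 1). The counts are not of unique molecules, so this depth covers counting error only.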

How the data were processed

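Poly(A)-selected RNA of 3 immature and 4 mature BMDC samples was sequenced as paired reads with a dUTP strand protocol. The deposited table holds raw counts as whole numbers, and FPKM values that the authors scaled by gene length and library total. The submitters' processing notes name cutadapt 1.9, HISAT2 2.2.1, StringTie 2.1.6, DESeq2 and edgeR, and build mm9, with no roles. The coordinates in the deposited table equal those of GENCODE M21 on GRCm38 for 25842 of 28588 genes (8 of the 9 members; the table ends Klf7 earlier), so positions are given on GRCm38. The strand setting of the counting is not given in the sources used here, so reads of genes on opposite strands may not be separated. Of counts from 1 to 16, 32% were multiples of 4 (25% if spread evenly), so a count may not be 1 fragment, and counts divided by 4 were also tested.

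The counts were fitted with edgeR 4.0.16 (R 4.3.3): filterByExpr, TMM factors, and quasi-likelihood F tests of mature against immature over 7 libraries, with p adjusted over the 17461 genes tested. The criteria were those of the study. The standard error is the log2 fold change divided by the square root of F. Summed FPKM was tested by an exact permutation test. The edgeR fit was checked on simulated counts, where it called 141 of 200 changed genes and made 6 false calls by both criteria. The permutation test was not part of that check. Promoter windows came from RefSeq, with motifs searched on both strands.

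The members and the 16 lists of related and marker genes were chosen with earlier results of these data known. Named are all members, the tested or detected Klf and Sp genes, at most 6 genes of each list that passed, the genes closest to the member with the steepest fall, and a few more (such as Fbxw7, S1pr1 and Dusp1) chosen after their values were seen. The values of 1 listed gene are not reported here. Alternatives were DESeq2 1.42.0, upper-quartile factors, no filter, limma 3.58.1 on log2(FPKM + 1) or log2(FPKM + 0.1) keeping genes that reached an FPKM of 1 in 3 libraries, or with no filter, each library left out, a replicate block, mature replicate 1 alone, and, added after seeing the data, counts divided by 4 and immature replicate 1 and mature replicate 3 left out together.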

Additional observations from a re-analysis of the deposited data

Results flagged for a closer look

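In 8 of 41 values compared, 1 of the 4 mature libraries stood apart, by a gap to its nearest neighbour over the whole range above the 95% critical value of Dixon's test. For independent values chance gives about 1 in 20, or 2 of 41. These values come from the same 4 libraries and are not independent, and some genes, such as Dusp1, were chosen after their values were seen. Mature replicate 3 was the library apart in 7 of the 8. Klf2 had a ratio of 0.89, with 50.4 CPM in mature replicate 3 against 10.5 to 14.9 in the others. Fos had 0.889 (55.8 CPM in mature replicate 3) and Dusp1 0.862 (192 CPM there), both also highest in it. Ccl5 had 0.895 (1815 CPM there). Klf8 had 0.865 (6.41 CPM), Sp3 0.93 (49.0 CPM) and Foxo1 0.856 (41.8 CPM), each lowest in mature replicate 3. Klf16 had 0.861, with mature replicate 2 lowest at 28.2 CPM.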

How the results depend on the processing

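Klf3, Klf4 and Klf13 passed both criteria in all 17 alternatives, with log2 fold changes of -1.58 to -1.14, -2.58 to -2.27 and -1.65 to -1.36. Klf2 lost its call without immature replicate 1 (-1.64, adjusted p = 0.0668) and ranged from -2.77 to -1.64 with single libraries left out. Klf9 missed the criterion on size in 5 alternatives, at -0.985 with both immature replicate 1 and mature replicate 3 left out, -0.974 with upper-quartile factors, -0.970 on log2(FPKM + 0.1), and -0.884 on log2(FPKM + 1) with or without a filter. Klf10 missed it on log2(FPKM + 1), at -0.993 with or without a filter. The median of all genes moved by 0.090 and 0.097 in the filtered fits on log2(FPKM + 1) and log2(FPKM + 0.1). Klf6 turned sign with mature replicate 1 alone (-0.042), without immature replicate 2 (-0.033) and without immature replicate 3 (-0.080), and ranged from -0.080 to 0.228 with single libraries left out, and its adjusted p was 0.0391 (log2 fold change 0.21) with both immature replicate 1 and mature replicate 3 left out. Klf7 and Klf11 missed the criterion on size in all 17. The count of Klf genes called ranged from 4 to 6. Over all genes the count of 4037 was 2561 on log2(FPKM + 0.1), 1768 on log2(FPKM + 1), 1716 on the latter without a filter, and 8053 with adjusted p alone. With upper-quartile factors 1504 were lower and 2590 higher, against 1737 and 2300.

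In the fit with a replicate block, the same 6 Klf genes passed, with Klf2 at -2.01 (adjusted p = 0.0405), and 3616 of all genes did. Same-numbered libraries of the groups did not deviate together (correlations of their deviations from group means -0.001 to 0.029), so the numbers were not taken to pair them.

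Among related genes, Klf5 turned sign without immature replicate 3 (-0.106), mature replicate 1 (-0.012) or mature replicate 2 (-0.241), with single libraries left out giving -0.241 to 0.365. Sp1 did so with both libraries left out (0.090), upper-quartile factors (0.046), log2(FPKM + 0.1) (0.025), log2(FPKM + 1) with or without a filter (0.025), mature replicate 1 alone (0.098) and without mature replicate 3 (0.074), with single libraries left out giving -0.114 to 0.074. The cause of these shifts was not tested.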
